A study of Mus musculus with 11 samples.

Results

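The 35 genes described here are markers and working parts of the blood-brain and blood-spinal cord barrier: junction proteins of brain endothelium, the receptors through which endothelial cells read vascular growth factors, the transporters and carriers of the vessel wall, endothelial transcription factors, and surface or secreted endothelial proteins. They were taken by name from a deposited expression table. All 35 were found among its 20888 rows, and all 35 were among the 14347 genes expressed highly enough to be tested. The list was written with earlier results of the same data known.

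Endothelial cells of the brain and spinal cord seal their contacts with tight junctions and let few vesicles cross, so that nutrients pass through dedicated transporters and many foreign compounds are pumped back into the blood by efflux carriers. Signals from neighbouring cells, among them VEGF from astrocytes and neurons, angiopoietins and Wnt ligands, maintain this state through receptors on the endothelial surface. Pericytes and the endfeet of astrocytes wrap the vessel on the tissue side.

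Lumbar spinal cords of C57BL/6 mice aged 10 months were profiled by RNA sequencing. The mice model CMT2A, the axonal form of Charcot-Marie-Tooth neuropathy that follows mutation of mitofusin 2, one of the proteins that fuse outer mitochondrial membranes. In all, 5 cords were labelled MFN2-R94Q:MFN1, for mice carrying the MFN2-R94Q mutant together with mitofusin 1, 3 were labelled MFN2-R94Q, and 3 were nontransgenic (nTg). The series title names restored mitofusin balance in the nervous system as the question. No promoter or species of the transgenes is given in the sources used here, and mice with the MFN1 transgene alone were not analysed here, so the share of MFN1 in a difference of MFN2-R94Q:MFN1 mice from nTg mice cannot be told apart from an effect of the combination.

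Values are RPKM, reads scaled to gene length and to the library's mapped reads, and 1 library was made per cord. Library depth, recovered from the smallest steps in the values, was 36.3 to 71.8 M reads in MFN2-R94Q:MFN1, 30.5 to 52.3 M in MFN2-R94Q and 34.5 to 53.8 M in nTg. The mouse Mfn1 row held 24.2 to 25.6 RPKM in MFN2-R94Q:MFN1, 25.8 to 26.6 in MFN2-R94Q and 24.2 to 25.5 in nTg. The mouse Mfn2 row held 43.3 to 47.0 RPKM in MFN2-R94Q:MFN1, 44.9 to 47.7 in MFN2-R94Q and 44.8 to 47.2 in nTg. These rows therefore do not show the transgenes and check no label. All 11 libraries held the Hox genes of the lumbar level, summing to 71.7 to 88.0 RPKM over 6 genes, lowest in MFN2-R94Q replicate 2. Replicate 2 of MFN2-R94Q stood apart: on the first principal component over all tested genes, which took up 39.6% of the variance, it lay at 27.0, the other MFN2-R94Q libraries at 6.20 and 8.05, and the remaining 8 libraries between -8.23 and -2.48. It carries the most extreme value in many of the comparisons given here, so the counts for the 35 genes, and those of other gene lists that it changes, are given with and without it.

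Promoters are shown for 6 genes that the results turn on: the VEGF receptor genes Flt1 and Kdr and the endoglin gene Eng, which were lower in MFN2-R94Q cords, Gkn3, which was lower there and had the largest fold change of the 35 between the transgenic groups, and Mfsd2a and Slco1a4, which were higher. Each is the 250 bases before the transcription start, written 5′ to 3′ on the gene's strand, from RefSeq on GRCm38.p6. Capitals mark GGAAG on either strand, the core bound by ETS factors such as the member Erg, and ACAAAG or ACAATG on either strand, the core bound by SOX factors such as the members Sox17 and Sox18.
Flt1 (chr5:147726012-147726261, minus strand): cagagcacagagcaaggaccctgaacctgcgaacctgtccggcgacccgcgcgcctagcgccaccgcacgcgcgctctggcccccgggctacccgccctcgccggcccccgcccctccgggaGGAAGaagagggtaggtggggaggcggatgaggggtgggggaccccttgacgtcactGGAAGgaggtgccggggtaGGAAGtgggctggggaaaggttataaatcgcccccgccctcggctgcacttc
Kdr (chr5:75978456-75978705, minus strand): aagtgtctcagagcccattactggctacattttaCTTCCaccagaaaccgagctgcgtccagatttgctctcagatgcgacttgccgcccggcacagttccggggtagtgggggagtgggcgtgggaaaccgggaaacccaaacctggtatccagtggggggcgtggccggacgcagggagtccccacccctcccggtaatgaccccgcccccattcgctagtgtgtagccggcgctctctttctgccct
Eng (chr2:32646345-32646594, plus strand): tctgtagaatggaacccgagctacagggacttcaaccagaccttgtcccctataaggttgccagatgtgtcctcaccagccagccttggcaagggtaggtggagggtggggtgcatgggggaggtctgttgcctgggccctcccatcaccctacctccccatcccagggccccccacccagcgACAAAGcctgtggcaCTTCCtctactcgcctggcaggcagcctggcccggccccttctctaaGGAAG
Gkn3 (chr6:87388936-87389185, minus strand): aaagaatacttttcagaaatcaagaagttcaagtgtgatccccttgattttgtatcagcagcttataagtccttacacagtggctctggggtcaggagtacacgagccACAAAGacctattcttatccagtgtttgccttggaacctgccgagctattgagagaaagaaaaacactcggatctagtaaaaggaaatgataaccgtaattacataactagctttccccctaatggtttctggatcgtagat
Mfsd2a (chr4:122961189-122961438, minus strand): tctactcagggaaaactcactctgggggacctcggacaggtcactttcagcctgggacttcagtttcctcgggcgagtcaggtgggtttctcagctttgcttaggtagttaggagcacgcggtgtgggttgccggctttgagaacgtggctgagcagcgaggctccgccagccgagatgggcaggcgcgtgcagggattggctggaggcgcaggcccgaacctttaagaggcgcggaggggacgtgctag
Slco1a4 (chr6:141856221-141856470, minus strand): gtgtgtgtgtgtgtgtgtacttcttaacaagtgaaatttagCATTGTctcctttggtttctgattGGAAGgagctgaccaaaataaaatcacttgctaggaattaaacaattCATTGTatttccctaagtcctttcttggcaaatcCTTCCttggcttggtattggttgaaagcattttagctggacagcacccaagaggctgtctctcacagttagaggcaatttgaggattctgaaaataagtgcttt
The ETS core occurred 3 times in the Flt1 window, 2 times each in those of Eng and Slco1a4, 1 time in that of Kdr, and 0 times in those of Gkn3 and Mfsd2a. The SOX core occurred 2 times in Slco1a4 and 1 time each in Eng and Gkn3. An entry was found for 26 of the 35 members. The ETS core was present in 6 of 10 members that were lower in MFN2-R94Q, 4 of 5 that were higher and 9 of 11 others, against 64.1% of all 32851 windows. For the SOX core these counts were 3 of 10, 3 of 5 and 4 of 11, against 25.2% of all windows. A member was counted if any of its windows held the core, while the percentages count single windows, so these are unlike measures. Matches of such short motifs are a description of the letters and not of binding.

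In nTg cords the 35 members averaged from 1.11 RPKM for Sox17 to 190 RPKM for Bsg, with a median of 7.91 RPKM, against 7.40 RPKM for all tested genes. MFN2-R94Q cords differed from nTg cords in both directions. Lower were 5 of the 7 receptor genes, the genes of VE-cadherin and claudin 5, and 3 surface and secreted markers. Of the 10 transporters and carriers 5 were higher and 2, Bsg and Pltp, were lower, and Vwf was higher. In MFN2-R94Q:MFN1 cords the same 5 receptor genes, Cdh5, Tjp1, 3 surface and secreted markers, Bsg, Pltp and Slc16a1 were higher than in MFN2-R94Q, Mfsd2a and Tfrc were lower, and 1 member, Slco1a4, passed as different from nTg.

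Against nTg, 6 members rose in MFN2-R94Q, where 7.5% of all tested genes rose, and 12 fell, where 10.4% of all tested genes fell; 17 did not pass an adjusted p of 0.05 (limma, Benjamini-Hochberg over all tested genes), and 17.9% of all genes passed in either direction. At an unadjusted p under 0.05 in the same fit, 6 members were higher, against 15.9% of all tested genes, and 16 were lower, against 18.5%. The median log2 fold change of the 35 was -0.14, and that of all tested genes was -0.00. The 3 MFN2-R94Q libraries lay wholly above the 3 nTg libraries for 5 members and wholly below them for 16, or 21 of 35, against 35.7% of all tested genes. In a piece of tissue, fewer endothelial cells and less of an RNA per endothelial cell cannot be told apart.

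Between MFN2-R94Q:MFN1 and MFN2-R94Q, 13 members were higher, where 9.55% of all tested genes were, and 2 were lower, where 3.33% of all tested genes were; 12.9% of all genes passed in either direction. Of all genes called in this comparison 74.1% were higher in the main scaling, 61.0% after median-ratio scaling and 54.7% after quantile normalization, so the background of higher calls depends on the scaling. At an unadjusted p under 0.05, 16 members were higher and 4 lower, against 19.1% and 10.3% of all tested genes. The members' median was 0.15, and that of all genes was 0.01. The ranges did not overlap for 14 members that were higher and 2 that were lower, against 20.1% of all genes. Between MFN2-R94Q:MFN1 and nTg, 1 member passed as higher, where 2.09% of all genes did, and 0 as lower, where 0.223% of all genes did; 2.31% passed in either direction. At an unadjusted p under 0.05 in the same limma fit, 6 members were higher, against 10% of all tested genes, and 1 was lower, against 5.49%. The median was -0.01 for the members and 0.01 for all genes, and 4 members had ranges that did not overlap, all higher, against 14.1% of all genes. The 3 comparisons share their libraries, so their values for a gene are not independent of each other.

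**Figure D1:**
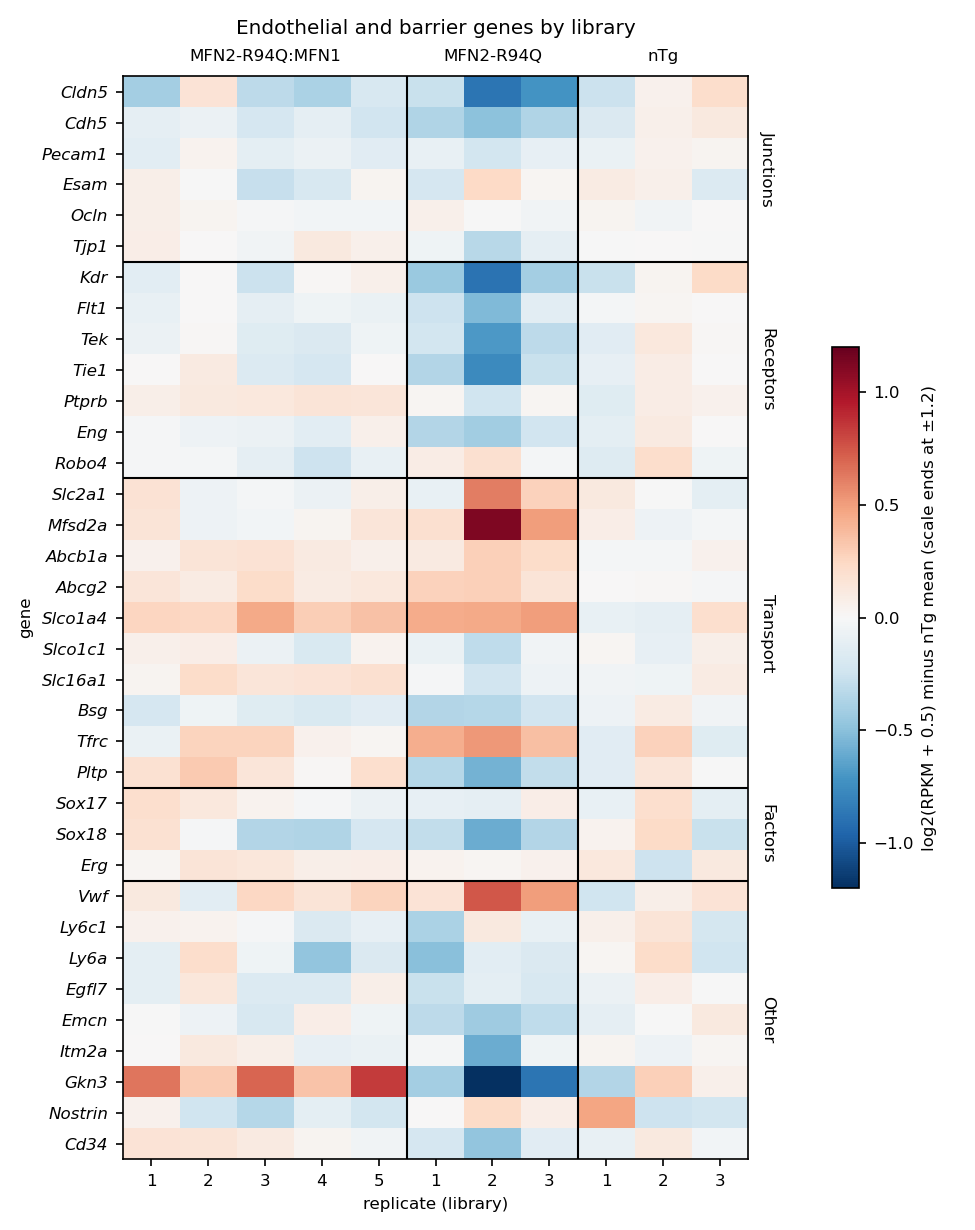
Each row is a member grouped by role and each column a library, and the colour is log2(RPKM + 0.5) minus the mean of the 3 nTg libraries, with the colour scale ending at ±1.2. The receptors Kdr, Flt1, Tek, Tie1 and Eng are blue in the MFN2-R94Q columns, most deeply in replicate 2, while Mfsd2a, Slco1a4 and Tfrc are red there.

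Among the 6 junction genes, 2 fell and 0 rose in MFN2-R94Q against nTg, and at an unadjusted p under 0.05 the limma counts were 4 lower and 0 higher. Cldn5, which encodes the claudin that closes the tight junctions of this barrier, had 15.0, 22.6, 16.1, 15.3 and 17.5 RPKM in MFN2-R94Q:MFN1 cords, 16.7, 10.7 and 12.1 RPKM in MFN2-R94Q cords, and 16.7, 20.8 and 23.3 RPKM in nTg cords. The highest MFN2-R94Q value lay just under the lowest nTg value, and the MFN2-R94Q:MFN1 libraries overlapped both other groups. Its level was lower in MFN2-R94Q than in nTg (log2 fold change -0.62 ± 0.17 SE, limma adjusted p = 0.026). The call ended without MFN2-R94Q replicate 2 or 3 or without nTg replicate 2 or 3, with limma adjusted p between 0.062 and 0.093. Cdh5, which encodes the VE-cadherin of adherens junctions, had 3.33, 3.43, 3.11, 3.34 and 3.02 RPKM in MFN2-R94Q:MFN1 cords, 2.72, 2.44 and 2.73 RPKM in MFN2-R94Q cords, and 3.16, 3.82 and 3.98 RPKM in nTg cords. All MFN2-R94Q libraries were below every library of the other groups. Cdh5 fell in MFN2-R94Q against nTg (log2 fold change -0.41 ± 0.078 SE, limma adjusted p = 0.0059) and kept that call without any library. It was higher in MFN2-R94Q:MFN1 than in MFN2-R94Q (log2 fold change 0.26 ± 0.070 SE, limma adjusted p = 0.030), a call that ended without MFN2-R94Q replicate 2 (adjusted p = 0.12) or without replicate 1, 2 or 4 of MFN2-R94Q:MFN1 (adjusted p from 0.057 to 0.068).

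Tjp1, which encodes the scaffold ZO-1 beneath tight junctions, had 19.9, 18.8, 18.2, 20.3 and 19.5 RPKM in MFN2-R94Q:MFN1 cords, 18.1, 14.7 and 17.3 RPKM in MFN2-R94Q cords, and 18.7, 18.8 and 18.6 RPKM in nTg cords. The 3 nTg libraries were nearly level, and the MFN2-R94Q libraries lay below those of both other groups. Tjp1 was higher in MFN2-R94Q:MFN1 than in MFN2-R94Q (log2 fold change 0.21 ± 0.057 SE, limma adjusted p = 0.030), while MFN2-R94Q against nTg gave a log2 fold change of -0.17 (limma adjusted p = 0.087). The difference between the transgenic groups ended without MFN2-R94Q replicate 2 (adjusted p = 0.10) or without replicate 1, 4 or 5 of MFN2-R94Q:MFN1 (0.060 to 0.062). Pecam1, Esam and Ocln, which encode 2 endothelial adhesion molecules and the tight junction protein occludin, passed in no comparison. The Ocln values ran from 2.35 to 2.58 RPKM over all 11 libraries, and its log2 fold change rounded to 0.00 in each comparison.

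Of the 7 receptor genes, 5 fell and 0 rose in MFN2-R94Q, with the same counts at an unadjusted p under 0.05 in limma, and the group's median log2 fold change was -0.33. Kdr, which encodes VEGF receptor 2, the main signalling receptor for VEGF-A on endothelium, had 1.95, 2.18, 1.73, 2.19 and 2.28 RPKM in MFN2-R94Q:MFN1 cords, 1.45, 0.945 and 1.50 RPKM in MFN2-R94Q cords, and 1.72, 2.24 and 2.62 RPKM in nTg cords. All 3 MFN2-R94Q libraries were below the rest, and nTg replicate 1 was level with the lowest MFN2-R94Q:MFN1 library. Kdr fell in MFN2-R94Q against nTg (log2 fold change -0.58 ± 0.14 SE, limma adjusted p = 0.015), and without nTg replicate 2 or 3 the adjusted p was 0.053 or 0.059. Kdr was higher in MFN2-R94Q:MFN1 than in MFN2-R94Q (log2 fold change 0.52 ± 0.13 SE, limma adjusted p = 0.019), and without MFN2-R94Q replicate 2 the log2 fold change was 0.37 (adjusted p = 0.080).

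Flt1, which encodes VEGF receptor 1, a receptor for VEGF-A and VEGF-B that also acts as a trap for ligand, had 7.90, 8.50, 7.82, 8.13 and 7.95 RPKM in MFN2-R94Q:MFN1 cords, 7.02, 5.72 and 7.70 RPKM in MFN2-R94Q cords, and 8.33, 8.57 and 8.46 RPKM in nTg cords. The nTg libraries were close together, and the MFN2-R94Q libraries were below all others. Flt1 fell in MFN2-R94Q against nTg (log2 fold change -0.30 ± 0.078 SE, limma adjusted p = 0.020), with an adjusted p of 0.064 without nTg replicate 2 and 0.051 without nTg replicate 3. Flt1 was higher in MFN2-R94Q:MFN1 than in MFN2-R94Q (log2 fold change 0.24 ± 0.069 SE, limma adjusted p = 0.042). That call was kept without MFN2-R94Q replicate 1 or 3 and lost without any other library, and without MFN2-R94Q replicate 2 the log2 fold change was 0.12 (adjusted p = 0.14).

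Tek encodes TIE2, the receptor for angiopoietins, and Tie1 its partner receptor. Tek had 2.72, 2.91, 2.56, 2.50 and 2.77 RPKM in MFN2-R94Q:MFN1 cords, 2.41, 1.60 and 2.23 RPKM in MFN2-R94Q cords, and 2.58, 3.20 and 2.92 RPKM in nTg cords. Replicate 2 of MFN2-R94Q was the lowest library, and the MFN2-R94Q libraries did not overlap either other group. Tek fell in MFN2-R94Q against nTg (log2 fold change -0.41 ± 0.11 SE, limma adjusted p = 0.023) but did not pass without MFN2-R94Q replicate 2 (-0.26, adjusted p = 0.058) or without nTg replicate 2 or 3 (0.090 and 0.060). It was higher in MFN2-R94Q:MFN1 than in MFN2-R94Q (log2 fold change 0.32 ± 0.097 SE, limma adjusted p = 0.047), a call kept without MFN2-R94Q replicate 1 or nTg replicate 2, lost without any other library, and at 0.18 (adjusted p = 0.19) without MFN2-R94Q replicate 2. Tie1 had 3.34, 3.61, 2.91, 2.82 and 3.33 RPKM in MFN2-R94Q:MFN1 cords, 2.48, 1.75 and 2.68 RPKM in MFN2-R94Q cords, and 3.06, 3.56 and 3.33 RPKM in nTg cords. Again the MFN2-R94Q libraries lay below the rest, with replicate 2 the lowest. Tie1 fell in MFN2-R94Q against nTg (log2 fold change -0.46 ± 0.12 SE, limma adjusted p = 0.019), with an adjusted p of 0.073 and 0.051 without nTg replicate 2 and 3. It was higher in MFN2-R94Q:MFN1 than in MFN2-R94Q (log2 fold change 0.41 ± 0.11 SE, limma adjusted p = 0.024), with 0.26 (adjusted p = 0.088) without MFN2-R94Q replicate 2 and adjusted p of 0.056 and 0.052 without MFN2-R94Q:MFN1 replicate 2 and 5.

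Eng, which encodes endoglin, a co-receptor for BMP and TGF-beta ligands on endothelium, had 6.70, 6.47, 6.42, 6.19 and 7.07 RPKM in MFN2-R94Q:MFN1 cords, 5.21, 4.94 and 5.73 RPKM in MFN2-R94Q cords, and 6.21, 7.36 and 6.81 RPKM in nTg cords. The 3 MFN2-R94Q libraries were below all 8 others. Eng fell in MFN2-R94Q against nTg (log2 fold change -0.33 ± 0.069 SE, limma adjusted p = 0.0083) and was higher in MFN2-R94Q:MFN1 than in MFN2-R94Q (log2 fold change 0.29 ± 0.061 SE, limma adjusted p = 0.012). Both calls were kept whichever library was left out. Ptprb, which encodes the phosphatase that acts on TIE2, and Robo4, a guidance receptor of endothelium, passed in no comparison. Ptprb lay at 3.50 to 3.73 RPKM in MFN2-R94Q:MFN1, 2.72 to 3.37 in MFN2-R94Q and 2.94 to 3.55 in nTg. Robo4 had a log2 fold change of 0.09 in MFN2-R94Q against nTg (limma adjusted p = 0.56).

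**Figure D2:**
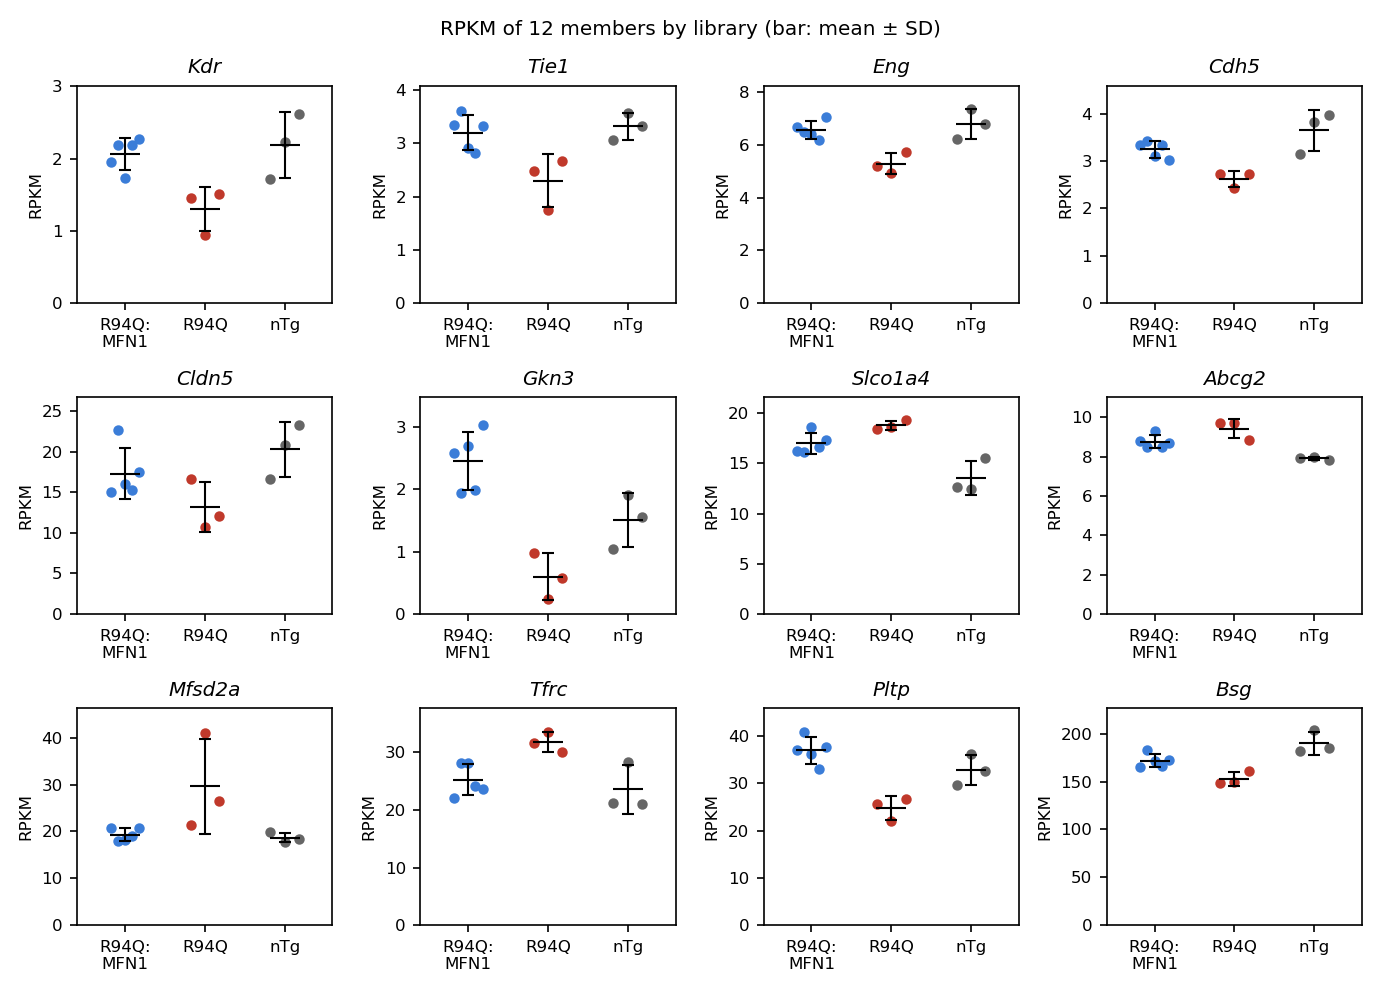
Points are libraries and bars the mean ± SD of RPKM for 12 members, with MFN2-R94Q:MFN1 (n = 5), MFN2-R94Q (n = 3) and nTg (n = 3) from left to right. For Kdr, Tie1, Eng, Cdh5, Pltp and Bsg every MFN2-R94Q point is below every other point, and the Mfsd2a mean in MFN2-R94Q rests largely on replicate 2 at 41.0 RPKM.

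The 10 transporters and carriers went both ways in MFN2-R94Q: 5 rose and 2 fell. Slco1a4, which encodes the organic anion transporter OATP1A4 of the rodent barrier, had 16.2, 16.1, 18.6, 16.6 and 17.3 RPKM in MFN2-R94Q:MFN1 cords, 18.5, 18.6 and 19.3 RPKM in MFN2-R94Q cords, and 12.6, 12.4 and 15.5 RPKM in nTg cords. Every library of the transgenic groups exceeded every nTg library. Slco1a4 rose in MFN2-R94Q (log2 fold change 0.47 ± 0.075 SE, limma adjusted p = 0.0031), a call kept without any library. It was also the member that passed in MFN2-R94Q:MFN1 against nTg (log2 fold change 0.32 ± 0.067 SE, limma adjusted p = 0.023), where the adjusted p was 0.13 without nTg replicate 1, 0.13 without nTg replicate 2, 0.053 without MFN2-R94Q:MFN1 replicate 3 and 0.055 without MFN2-R94Q:MFN1 replicate 5. The log2 fold change of MFN2-R94Q:MFN1 against MFN2-R94Q was -0.14 (limma adjusted p = 0.17).

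The efflux pumps of the luminal membrane were slightly higher in MFN2-R94Q. Abcg2, which encodes the breast cancer resistance protein, had 8.78, 8.51, 9.31, 8.51 and 8.71 RPKM in MFN2-R94Q:MFN1 cords, 9.69, 9.73 and 8.85 RPKM in MFN2-R94Q cords, and 7.92, 7.99 and 7.82 RPKM in nTg cords. The nTg libraries were close together and below all 8 transgenic libraries. It rose in MFN2-R94Q (log2 fold change 0.24 ± 0.048 SE, limma adjusted p = 0.0076), whichever library was left out. Abcb1a, which encodes P-glycoprotein, had 8.51, 9.14, 9.28, 8.83 and 8.56 RPKM in MFN2-R94Q:MFN1 cords, 8.82, 10.1 and 9.60 RPKM in MFN2-R94Q cords, and 8.02, 8.02 and 8.45 RPKM in nTg cords. The nTg libraries were the lowest here too, though by a small margin. It rose in MFN2-R94Q (log2 fold change 0.20 ± 0.053 SE, limma adjusted p = 0.021), with adjusted p from 0.063 to 0.070 without MFN2-R94Q replicate 2 or nTg replicate 1 or 2. Neither pump passed in MFN2-R94Q:MFN1 against nTg, with log2 fold changes of 0.14 for Abcg2 (limma adjusted p = 0.14) and 0.11 for Abcb1a (0.28). The near-identical copy Abcb1b had 1.07 to 1.87 RPKM, and how shared reads were assigned is not given in the sources used here.

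Mfsd2a encodes the importer of lipids carrying docosahexaenoic acid, which also holds down vesicle transport across brain endothelium. It had 20.8, 17.8, 18.2, 19.0 and 20.7 RPKM in MFN2-R94Q:MFN1 cords, 21.4, 41.0 and 26.6 RPKM in MFN2-R94Q cords, and 19.8, 17.8 and 18.4 RPKM in nTg cords. Replicate 2 of MFN2-R94Q was far above every other library, the remaining MFN2-R94Q libraries lay between it and nTg, and the MFN2-R94Q:MFN1 libraries overlapped nTg. It rose in MFN2-R94Q against nTg (log2 fold change 0.60 ± 0.16 SE, limma adjusted p = 0.023) and was lower in MFN2-R94Q:MFN1 than in MFN2-R94Q (log2 fold change -0.56 ± 0.14 SE, limma adjusted p = 0.026). Without MFN2-R94Q replicate 2 the 2 log2 fold changes were 0.35 (adjusted p = 0.023) and -0.30 (adjusted p = 0.042). The first call ended without nTg replicate 2 or 3 (adjusted p = 0.076 and 0.061), and the second without MFN2-R94Q:MFN1 replicate 2 or 3 (0.059 and 0.051).

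Tfrc, which encodes the transferrin receptor that takes up iron, had 22.1, 28.2, 28.2, 24.2 and 23.7 RPKM in MFN2-R94Q:MFN1 cords, 31.7, 33.6 and 30.1 RPKM in MFN2-R94Q cords, and 21.2, 28.4 and 21.1 RPKM in nTg cords. Libraries of MFN2-R94Q were the highest, and nTg replicate 2 matched the highest MFN2-R94Q:MFN1 libraries. It rose in MFN2-R94Q against nTg (log2 fold change 0.44 ± 0.11 SE, limma adjusted p = 0.019) and was lower in MFN2-R94Q:MFN1 than in MFN2-R94Q (log2 fold change -0.33 ± 0.099 SE, limma adjusted p = 0.046). The rise ended without MFN2-R94Q replicate 2 or nTg replicate 1 or 3 (adjusted p from 0.053 to 0.070), and the difference between the transgenic groups ended without any MFN2-R94Q library or without replicate 1, 4 or 5 of MFN2-R94Q:MFN1 (adjusted p from 0.056 to 0.15).

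Bsg encodes basigin, a membrane glycoprotein that carries monocarboxylate transporters to the cell surface and is made by many cell types besides endothelium. It had 165, 183, 172, 166 and 173 RPKM in MFN2-R94Q:MFN1 cords, 148, 149 and 161 RPKM in MFN2-R94Q cords, and 181, 203 and 185 RPKM in nTg cords. The MFN2-R94Q libraries were the 3 lowest, and 1 MFN2-R94Q:MFN1 library, replicate 2, lay inside the nTg range. Bsg fell in MFN2-R94Q against nTg (log2 fold change -0.31 ± 0.051 SE, limma adjusted p = 0.0033), whichever library was left out. It was higher in MFN2-R94Q:MFN1 than in MFN2-R94Q (log2 fold change 0.17 ± 0.046 SE, limma adjusted p = 0.032), a call lost without MFN2-R94Q replicate 1 or 2 or MFN2-R94Q:MFN1 replicate 2, 3 or 5 (adjusted p from 0.054 to 0.10). Slc16a1, which encodes the lactate transporter MCT1 that Bsg escorts, had 15.2, 17.3, 16.5, 16.6 and 16.9 RPKM in MFN2-R94Q:MFN1 cords, 14.6, 12.5 and 14.2 RPKM in MFN2-R94Q cords, and 14.3, 14.3 and 15.8 RPKM in nTg cords. The MFN2-R94Q:MFN1 libraries were above those of MFN2-R94Q and mostly above nTg. Slc16a1 was higher in MFN2-R94Q:MFN1 than in MFN2-R94Q (log2 fold change 0.25 ± 0.057 SE, limma adjusted p = 0.014; adjusted p = 0.052 without MFN2-R94Q replicate 2), and MFN2-R94Q against nTg gave -0.10 (limma adjusted p = 0.27).

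Pltp, which encodes phospholipid transfer protein, had 37.1, 40.9, 36.2, 33.1 and 37.7 RPKM in MFN2-R94Q:MFN1 cords, 25.7, 22.0 and 26.7 RPKM in MFN2-R94Q cords, and 29.8, 36.2 and 32.6 RPKM in nTg cords. The MFN2-R94Q libraries were the 3 lowest by a clear gap. Pltp fell in MFN2-R94Q against nTg (log2 fold change -0.40 ± 0.085 SE, limma adjusted p = 0.0091) and was 1.48-fold higher in MFN2-R94Q:MFN1 than in MFN2-R94Q on the log2(RPKM + 0.5) scale (log2 fold change 0.57 ± 0.076 SE, limma adjusted p = 0.0013), the member with the smallest p in that comparison. Both calls were kept without any library. Its exons share 495 bases with Ctsa on the opposite strand, and whether the counting used the strand is not given in the sources used here. Another 6 members, Eng, Slc2a1, Abcb1a, Sox17, Egfl7 and Cd34, also share exon bases with an annotated neighbour. Slc2a1, the glucose transporter GLUT1, and Slco1c1, a thyroid hormone transporter, passed in no comparison. Slc2a1 spread from 55.9 to 91.7 RPKM among the MFN2-R94Q libraries, with replicate 2 the highest of all 11.

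The transcription factor genes showed no member past the threshold in any comparison, and at an unadjusted p under 0.05 limma gave 1, Sox18, lower in MFN2-R94Q. Sox18 had 4.45, 3.81, 2.91, 2.88 and 3.27 RPKM in MFN2-R94Q:MFN1 cords, 3.04, 2.37 and 2.90 RPKM in MFN2-R94Q cords, and 3.97, 4.61 and 3.10 RPKM in nTg cords. Its MFN2-R94Q libraries lay below nTg, at a log2 fold change of -0.42 ± 0.15 SE (limma adjusted p = 0.071). Erg, the ETS factor that maintains endothelial identity, averaged 1.39 ± 0.0701 RPKM in MFN2-R94Q:MFN1, 1.32 ± 0.0164 in MFN2-R94Q and 1.28 ± 0.252 in nTg (SD). Sox17, a factor of arterial endothelium, averaged 1.17 ± 0.127 RPKM in MFN2-R94Q:MFN1, 1.06 ± 0.114 in MFN2-R94Q and 1.11 ± 0.197 in nTg (SD).

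Of the 9 surface, secreted and other members, 1 rose and 3 fell in MFN2-R94Q. Gkn3, which marks arterial endothelium in the mouse brain, had 2.59, 1.94, 2.70, 2.00 and 3.03 RPKM in MFN2-R94Q:MFN1 cords, 0.987, 0.241 and 0.577 RPKM in MFN2-R94Q cords, and 1.05, 1.91 and 1.56 RPKM in nTg cords. All MFN2-R94Q:MFN1 libraries were above all nTg libraries, and all nTg libraries were above all MFN2-R94Q libraries. Gkn3 fell in MFN2-R94Q (log2 fold change -0.90 ± 0.23 SE, limma adjusted p = 0.018) and was 2.76-fold higher in MFN2-R94Q:MFN1 than in MFN2-R94Q (log2 fold change 1.46 ± 0.20 SE, limma adjusted p = 0.0014), a call that every omission of a library kept. In MFN2-R94Q:MFN1 against nTg the log2 fold change was 0.56 ± 0.20 SE (limma adjusted p = 0.20). The fall ended without MFN2-R94Q replicate 2 (-0.64, adjusted p = 0.053) or without nTg replicate 2 or 3 (0.075 and 0.052). Gkn3 has a short transcript, and its value in MFN2-R94Q replicate 2 rested on about 8.6 reads, an approximation from its longest annotated transcript.

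Emcn, which encodes the sialomucin endomucin of capillaries and veins, had 4.41, 4.19, 3.79, 4.69 and 4.23 RPKM in MFN2-R94Q:MFN1 cords, 3.46, 3.15 and 3.48 RPKM in MFN2-R94Q cords, and 4.05, 4.38 and 4.82 RPKM in nTg cords. The MFN2-R94Q libraries were below all others. It fell in MFN2-R94Q against nTg (log2 fold change -0.35 ± 0.075 SE, limma adjusted p = 0.0099), whichever library was left out, and was higher in MFN2-R94Q:MFN1 than in MFN2-R94Q (log2 fold change 0.30 ± 0.068 SE, limma adjusted p = 0.015; adjusted p = 0.059 without MFN2-R94Q replicate 2). Cd34, another endothelial sialomucin, had 9.93, 9.91, 9.54, 9.03 and 8.57 RPKM in MFN2-R94Q:MFN1 cords, 7.62, 6.22 and 7.98 RPKM in MFN2-R94Q cords, and 8.28, 9.66 and 8.62 RPKM in nTg cords. Here too the MFN2-R94Q libraries were the lowest. Cd34 was higher in MFN2-R94Q:MFN1 than in MFN2-R94Q (log2 fold change 0.35 ± 0.076 SE, limma adjusted p = 0.012), a call kept without any library. Its fall in MFN2-R94Q against nTg (log2 fold change -0.27 ± 0.085 SE, limma adjusted p = 0.044) was kept without MFN2-R94Q replicate 1 or 3 or MFN2-R94Q:MFN1 replicate 5 and lost without any other library, with adjusted p up to 0.16, and was -0.17 on the log2 scale without MFN2-R94Q replicate 2.

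Vwf, which encodes von Willebrand factor, the clotting protein stored by endothelial cells and most abundant in veins, was the exception among the surface and secreted members. It had 2.00, 1.62, 2.23, 2.07 and 2.28 RPKM in MFN2-R94Q:MFN1 cords, 2.07, 3.37 and 2.76 RPKM in MFN2-R94Q cords, and 1.46, 1.92 and 2.08 RPKM in nTg cords. Replicates 2 and 3 of MFN2-R94Q were the highest of all 11 libraries, and replicate 1 overlapped both other groups. It rose in MFN2-R94Q (log2 fold change 0.47 ± 0.14 SE, limma adjusted p = 0.041), but the call was kept without MFN2-R94Q replicate 1, nTg replicate 3 or MFN2-R94Q:MFN1 replicate 2 and lost without any other library, with 0.33 (adjusted p = 0.14) without MFN2-R94Q replicate 2 and 0.35 (adjusted p = 0.14) without nTg replicate 1. Ly6c1, Ly6a, Egfl7, Itm2a and Nostrin passed in no comparison. Of these, Egfl7, a secreted endothelial protein, had its 3 MFN2-R94Q libraries at 10.2 to 11.4 RPKM, below the nTg libraries at 11.8 to 13.1 RPKM (limma adjusted p = 0.10), and Itm2a had 1 low library, MFN2-R94Q replicate 2 at 19.9 RPKM, the other 10 lying at 28.5 to 33.0 RPKM.

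**Figure D3:**
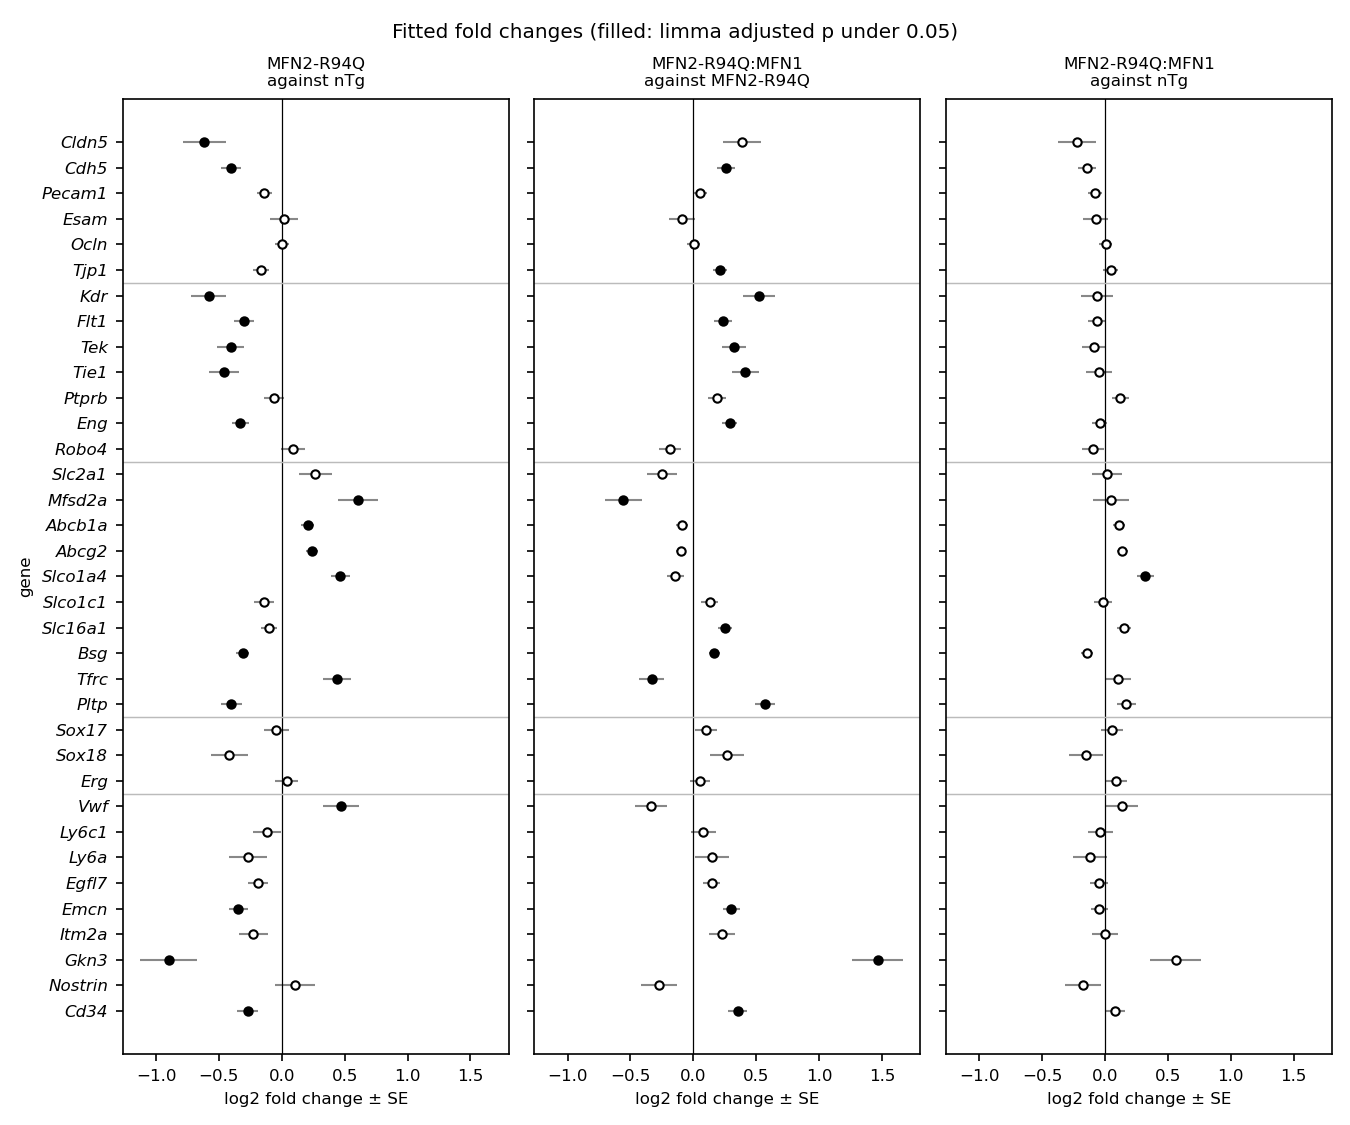
Points are fitted log2 fold changes with their SE for the 35 members in the 3 comparisons, filled where the limma adjusted p is under 0.05. In MFN2-R94Q against nTg, 6 filled points lie above 0 and 12 below it; in MFN2-R94Q:MFN1 against nTg 1 point, Slco1a4, is filled.

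MFN2-R94Q replicate 2 was the most extreme of all 11 libraries for 11 of the 12 lowered members and for 5 of the 6 raised members. Averaged over the 12 lowered members, the log2 difference from the nTg mean was between -0.06 and 0.07 in the MFN2-R94Q:MFN1 libraries. It was -0.32, -0.66 and -0.35 in replicates 1 to 3 of MFN2-R94Q, and -0.15 to 0.10 in nTg. Over the 6 raised members it was 0.10 to 0.22 in MFN2-R94Q:MFN1, 0.27, 0.57 and 0.37 in the 3 MFN2-R94Q libraries, and -0.07 to 0.04 in nTg. These genes were picked for their difference, so the averages describe how each library contributed and test nothing. All 3 MFN2-R94Q libraries lay on the same side, and replicate 2 lay farthest out. Without it, 3 members were higher and 8 lower in MFN2-R94Q against nTg, where 4.33% of all tested genes were higher and 6.97% lower, with a median of -0.09. The 3 higher were transporters, and the 8 lower were 4 receptors, 2 carriers, 1 junction gene and 1 surface gene. Likewise 4 were higher and 1 lower in MFN2-R94Q:MFN1 against MFN2-R94Q, where 5.05% of all tested genes were higher and 1.08% lower, with a median of 0.12. The calls that held without each of the 11 libraries in turn and in all 9 other settings tried were 7 of 18 in MFN2-R94Q against nTg, namely Cdh5, Eng, Abcg2, Slco1a4, Bsg, Pltp and Emcn, and 4 of 15 in MFN2-R94Q:MFN1 against MFN2-R94Q, namely Eng, Pltp, Gkn3 and Cd34. No call changed its sign in any of these.

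The ligands of the receptors were read from a list of 21 VEGF, angiopoietin and Notch genes, 20 of them tested. In MFN2-R94Q against nTg 3 rose and 2 fell, with a median of -0.01. Vegfa, whose product is the main ligand of the Kdr receptor, had 17.5, 18.6, 18.1, 19.2 and 19.4 RPKM in MFN2-R94Q:MFN1 cords, 14.4, 10.7 and 14.8 RPKM in MFN2-R94Q cords, and 20.6, 19.4 and 22.0 RPKM in nTg cords. The MFN2-R94Q libraries were below all others, and replicate 2 was the lowest. Vegfa fell in MFN2-R94Q against nTg (log2 fold change -0.63 ± 0.093 SE, limma adjusted p = 0.0029), was higher in MFN2-R94Q:MFN1 than in MFN2-R94Q (log2 fold change 0.48 ± 0.084 SE, limma adjusted p = 0.0049), and without MFN2-R94Q replicate 2 the 2 values were -0.48 (adjusted p = 0.00049) and 0.33 (adjusted p = 0.0026). Vegfb, whose product binds the Flt1 receptor, had 37.6, 42.7, 39.6, 42.7 and 42.1 RPKM in MFN2-R94Q:MFN1 cords, 35.8, 34.7 and 37.1 RPKM in MFN2-R94Q cords, and 43.8, 43.3 and 45.0 RPKM in nTg cords. Again MFN2-R94Q held the lowest 3 of the 11 libraries, with MFN2-R94Q:MFN1 replicate 1 just above them. Vegfb fell in MFN2-R94Q against nTg (log2 fold change -0.29 ± 0.049 SE, limma adjusted p = 0.0034) and was higher in MFN2-R94Q:MFN1 than in MFN2-R94Q (log2 fold change 0.19 ± 0.044 SE, limma adjusted p = 0.017; adjusted p = 0.061 without MFN2-R94Q replicate 2).

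Angpt1, which encodes the activating ligand of the Tek receptor, moved the other way: it had 2.56, 2.61, 2.59, 2.60 and 2.22 RPKM in MFN2-R94Q:MFN1 cords, 2.61, 2.88 and 2.48 RPKM in MFN2-R94Q cords, and 2.10, 1.78 and 2.39 RPKM in nTg cords. The nTg libraries were mostly the lowest, with overlap between nTg and MFN2-R94Q:MFN1. Angpt1 rose in MFN2-R94Q against nTg (log2 fold change 0.29 ± 0.087 SE, limma adjusted p = 0.036; adjusted p = 0.11 without MFN2-R94Q replicate 2). Jag1, a Notch ligand, and Id3, a target of BMP signalling, also rose, by 0.29 (limma adjusted p = 0.039) and 0.22 (0.025) on the log2 scale, with adjusted p of 0.073 and 0.075 without MFN2-R94Q replicate 2. In MFN2-R94Q:MFN1 against MFN2-R94Q, 4 of the 20 were higher and 0 lower (9 and 2 at an unadjusted p under 0.05 in limma): Vegfa, Vegfb, Id3 and Smad6. Leaving out MFN2-R94Q replicate 2 gave 0 higher and 2 lower in MFN2-R94Q against nTg, and 2 higher and 0 lower in MFN2-R94Q:MFN1 against MFN2-R94Q. Id3 was the 1 gene of the list that passed in MFN2-R94Q:MFN1 against nTg (log2 fold change 0.44 ± 0.053 SE, limma adjusted p = 0.00041).

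Further endothelial genes outside the 35 were read in the same way. Of 16 tested pan-endothelial genes, 4 fell and 0 rose in MFN2-R94Q against nTg (7 and 1 at an unadjusted p under 0.05 in limma), with a median of -0.09: S1pr1, the sphingosine-1-phosphate receptor, Cd93, Mmrn2 and Icam2. S1pr1 had 41.0, 38.0, 35.5, 38.3 and 39.0 RPKM in MFN2-R94Q:MFN1 cords, 32.6, 29.8 and 33.6 RPKM in MFN2-R94Q cords, and 40.2, 43.9 and 40.1 RPKM in nTg cords. Its MFN2-R94Q libraries were below all others (log2 fold change -0.37 ± 0.057 SE, limma adjusted p = 0.0031). All 16 genes together summed to 79.8 to 90.2 RPKM in nTg, so S1pr1 made up a large part of the list's level. Which cell types of the cord supplied the S1pr1 RNA was not tested. S1pr1, Mmrn2 and Sox7 were the 3 that were higher in MFN2-R94Q:MFN1 than in MFN2-R94Q. Without MFN2-R94Q replicate 2, 1 gene of this list, S1pr1, passed as lower in MFN2-R94Q (-0.32, adjusted p = 0.0044), and 1 was higher in MFN2-R94Q:MFN1 than in MFN2-R94Q.

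Among 19 tested junction and transport genes outside the 35, 1 rose and 3 fell in MFN2-R94Q against nTg, with a median of -0.04. Jam2, a junctional adhesion molecule, had 19.1, 19.1, 19.1, 19.5 and 19.0 RPKM in MFN2-R94Q:MFN1 cords, 16.5, 14.1 and 16.6 RPKM in MFN2-R94Q cords, and 18.3, 19.8 and 18.7 RPKM in nTg cords. Cav1, which builds caveolae, the vesicles that Mfsd2a holds down in brain endothelium, had 7.62, 8.25, 7.60, 7.75 and 7.94 RPKM in MFN2-R94Q:MFN1 cords, 6.27, 5.17 and 6.22 RPKM in MFN2-R94Q cords, and 7.06, 7.37 and 7.56 RPKM in nTg cords. For both genes the MFN2-R94Q libraries were below all others. Jam2 fell in MFN2-R94Q (log2 fold change -0.26 ± 0.054 SE, limma adjusted p = 0.0084) and so did Cav1 (log2 fold change -0.30 ± 0.064 SE, limma adjusted p = 0.0096). In MFN2-R94Q:MFN1 against MFN2-R94Q the log2 fold changes were 0.28 for Jam2 (limma adjusted p = 0.0045) and 0.39 for Cav1 (0.0022). The 1 that rose was Slc7a1, the cationic amino acid transporter, with 8.79, 9.14, 8.49, 9.18 and 9.24 RPKM in MFN2-R94Q:MFN1 cords, 9.88, 10.3 and 9.75 RPKM in MFN2-R94Q cords, and 8.07, 7.96 and 7.97 RPKM in nTg cords. Its MFN2-R94Q libraries were the highest and its nTg libraries the lowest (log2 fold change 0.30 ± 0.043 SE, limma adjusted p = 0.0026). In MFN2-R94Q:MFN1 against MFN2-R94Q, 5 genes of this list were higher and 1 was lower. Without MFN2-R94Q replicate 2, 1 gene of this list was higher and 2 were lower in MFN2-R94Q against nTg, and 2 were higher and 0 lower in MFN2-R94Q:MFN1 against MFN2-R94Q.

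**Figure D4:**
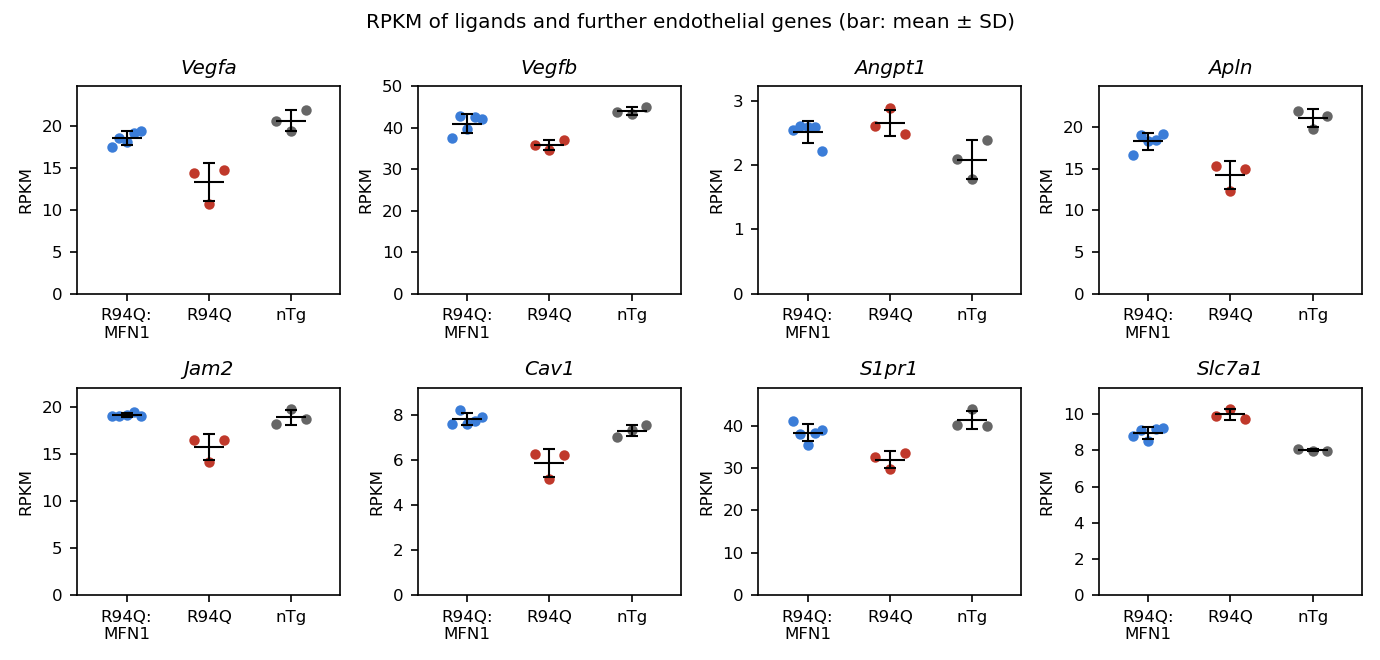
Points are libraries and bars the mean ± SD of RPKM for VEGF and angiopoietin ligands and further endothelial genes, with MFN2-R94Q:MFN1 (n = 5), MFN2-R94Q (n = 3) and nTg (n = 3) from left to right. Vegfa, Vegfb, Apln, Jam2, Cav1 and S1pr1 are lowest in MFN2-R94Q, and Slc7a1 is highest there.

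Of 18 genes of Wnt and beta-catenin signalling, 1 rose and 2 fell in MFN2-R94Q against nTg, with a median of -0.05. The list includes ligand genes such as Wnt7a and Wnt7b, and the part of endothelium in these values was not tested. Both directions included inhibitors that the pathway itself induces: Apcdd1 rose (log2 fold change 0.34 ± 0.10 SE, limma adjusted p = 0.035) and Nkd1 fell (log2 fold change -0.41 ± 0.097 SE, limma adjusted p = 0.014). Ctnnb1, which encodes beta-catenin, fell by 0.11 on the log2 scale (limma adjusted p = 0.046). In MFN2-R94Q:MFN1 against MFN2-R94Q 3 were higher, among them Nkd1 (0.39, limma adjusted p = 0.014) and Tcf7 (0.34, 0.020), and 0 were lower, with 5 and 0 at an unadjusted p under 0.05. Against nTg 0 passed in either direction, with 3 higher and 0 lower at an unadjusted p under 0.05 in limma. Without MFN2-R94Q replicate 2, Wnt genes lower in MFN2-R94Q against nTg numbered 1 and those higher 0, and 1 was higher in MFN2-R94Q:MFN1 than in MFN2-R94Q.

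By vessel type, 1 of 10 arterial genes rose in MFN2-R94Q against nTg, Fbln5 (log2 fold change 0.50 ± 0.13 SE, limma adjusted p = 0.018), and 1 fell, Gkn3. This list is not particular to arteries in whole cord, as its gene Stmn2 also stands in the neuron list used here. Its 10 genes summed to 546 to 550 RPKM in nTg, where Gkn3 averaged 1.51 RPKM. Of 10 venous genes 2 rose, Il1r1 (log2 fold change 0.53 ± 0.15 SE, limma adjusted p = 0.029) and Vwf, and 0 fell, with 3 higher and 0 lower at an unadjusted p under 0.05 in limma. Il1r1 stood at 1.84 RPKM in MFN2-R94Q replicate 2, 0.855 and 1.37 RPKM in replicates 1 and 3, and 0.666 to 0.852 RPKM in nTg. Without MFN2-R94Q replicate 2, 0 venous genes passed, and of the arterial genes 1 was higher and 0 lower. Of 5 tested genes of activated or leaky endothelium, 1 fell and 0 rose, the same counts as at an unadjusted p under 0.05 in limma. That gene was Apln, which encodes the peptide apelin of growing vessels, with 16.6, 19.0, 18.3, 18.4 and 19.1 RPKM in MFN2-R94Q:MFN1 cords, 15.4, 12.3 and 15.0 RPKM in MFN2-R94Q cords, and 22.0, 19.8 and 21.4 RPKM in nTg cords. The 3 MFN2-R94Q libraries were below all others (log2 fold change -0.55 ± 0.075 SE, limma adjusted p = 0.0023), also without replicate 2 (-0.46, adjusted p = 0.00089). Apln made up most of the level of these 5 genes, which summed to 32.4 to 37.0 RPKM in nTg, and the cell types that supplied it were not tested. Sele and Selp, the selectins of inflamed endothelium, averaged at most 0.0121 RPKM in MFN2-R94Q and nTg cords and were not tested. In MFN2-R94Q:MFN1 against MFN2-R94Q, 3 arterial genes were higher and 1 lower, where 9.55% and 3.33% of all tested genes were. Against nTg, 2 were higher and 0 lower, where 2.09% and 0.223% of all tested genes were. Arterial scores were 0.18 to 0.29 in MFN2-R94Q:MFN1, -0.01 to 0.02 in MFN2-R94Q and -0.06 to 0.06 in nTg.

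Markers of other cells of the vessel wall and of the tissue were read beside these genes. Of 13 tested pericyte genes, 0 passed in MFN2-R94Q against nTg, with 3 higher and 2 lower at an unadjusted p under 0.05 in limma, a median of -0.04 and summed levels of 61.8 to 73.7 RPKM in MFN2-R94Q against 69.8 to 74.6 RPKM in nTg. In MFN2-R94Q:MFN1, where they summed to 74.9 to 79.9 RPKM, Vtn and Ifitm1 were higher than in MFN2-R94Q, but 0 pericyte genes passed when MFN2-R94Q replicate 2 was left out. Of 7 tested smooth muscle genes 1 rose and 1 fell in MFN2-R94Q against nTg, and of 11 fibroblast genes 1 rose; without its replicate 2 these counts were 0, 1 and 0. Replicate 3 of MFN2-R94Q:MFN1 had a fibroblast score, the mean log2 difference of the list's genes from the nTg mean, of 0.49, and the other libraries -0.04 to 0.08. Of 12 astrocyte endfoot genes 2 rose and 2 fell in MFN2-R94Q against nTg, and 1 and 1 without its replicate 2. Aqp4, the water channel of endfeet, had 91.4, 95.7, 93.3, 99.6 and 88.1 RPKM in MFN2-R94Q:MFN1 cords, 75.3, 51.7 and 66.3 RPKM in MFN2-R94Q cords, and 83.8, 76.1 and 74.2 RPKM in nTg cords. The MFN2-R94Q:MFN1 libraries were the highest and MFN2-R94Q replicate 2 the lowest. Aqp4 was higher in MFN2-R94Q:MFN1 than in MFN2-R94Q (log2 fold change 0.55 ± 0.090 SE, limma adjusted p = 0.0035), and MFN2-R94Q against nTg gave -0.29 (limma adjusted p = 0.064).

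All 12 microglial genes were higher in MFN2-R94Q:MFN1 than in MFN2-R94Q and 10 were higher than in nTg, with scores of 0.45 to 0.60 in MFN2-R94Q:MFN1, -0.04 to 0.12 in MFN2-R94Q and -0.04 to 0.03 in nTg. The part of microglial RNA in the members' values was not tested. In MFN2-R94Q against nTg the oligodendrocyte list had 1 gene higher and 3 lower of 8, and 1 and 1 without MFN2-R94Q replicate 2. In MFN2-R94Q:MFN1 against MFN2-R94Q 5 of these 8 were higher and 0 lower, and 3 were higher without that library. Oligodendrocyte scores were 0.02 to 0.10 in MFN2-R94Q:MFN1, -0.26 to -0.06 in MFN2-R94Q and -0.06 to 0.07 in nTg. Every MFN2-R94Q library scored below every MFN2-R94Q:MFN1 library, and the part of oligodendrocyte RNA in the members' values was not tested. The neuron list had 1 gene higher and 3 lower of 11 in MFN2-R94Q against nTg, and 0 and 2 without that library. Of the 6 Hox genes 1, Hoxa10, was lower in MFN2-R94Q than in nTg, at -0.21 (limma adjusted p = 0.014). The 8 markers of perivascular macrophages, of which 1 was high enough to be tested, summed to at most 2.52 RPKM in any library. Haemoglobin and other red cell genes summed to 240 to 737 RPKM in MFN2-R94Q:MFN1, 181 to 396 RPKM in MFN2-R94Q and 316 to 417 RPKM in nTg, and 0 of 7 passed in any comparison, also at an unadjusted p under 0.05 in limma. MFN2-R94Q replicate 2 had the lowest of these sums, and the blood left in each cord was not otherwise measured.

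Glucocorticoid response genes, which stress hormone induces in many cell types, were read as a further list, Fkbp5 and Plin4 among them. Of 16 such genes 7 rose in MFN2-R94Q against nTg and 0 fell, with 14 and 0 at an unadjusted p under 0.05 in limma. The list's score was -0.25 to 0.26 in MFN2-R94Q:MFN1, 0.39, 1.66 and 0.78 in replicates 1 to 3 of MFN2-R94Q, and -0.13 to 0.19 in nTg. Plin4 had 4.73, 1.99, 4.49, 3.09 and 4.29 RPKM in MFN2-R94Q:MFN1 cords, 10.7, 51.9 and 11.4 RPKM in MFN2-R94Q cords, and 2.46, 2.19 and 1.60 RPKM in nTg cords. Fkbp5 had 9.22, 7.60, 7.68, 7.35 and 8.14 RPKM in MFN2-R94Q:MFN1 cords, 10.3, 29.3 and 11.8 RPKM in MFN2-R94Q cords, and 8.54, 7.41 and 6.92 RPKM in nTg cords. Replicate 2 was the highest library for both, followed by replicate 3, and it was also the highest for Mfsd2a and Vwf and the lowest for Kdr, Tek, Tie1, Cldn5 and Gkn3. That library was not extreme for these genes alone. Of all libraries it also had the lowest score for the other pan-endothelial (-0.18), red cell (-1.01), oligodendrocyte (-0.26), neuron (-0.10) and Hox (-0.25) lists. Its venous score (0.35) was the highest, while its astrocyte endfoot score (0.03) lay within the range of the others. Without MFN2-R94Q replicate 2, 6 of the 16 glucocorticoid response genes passed as higher. The part of this response in the members' values was not tested.

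**Figure D5:**
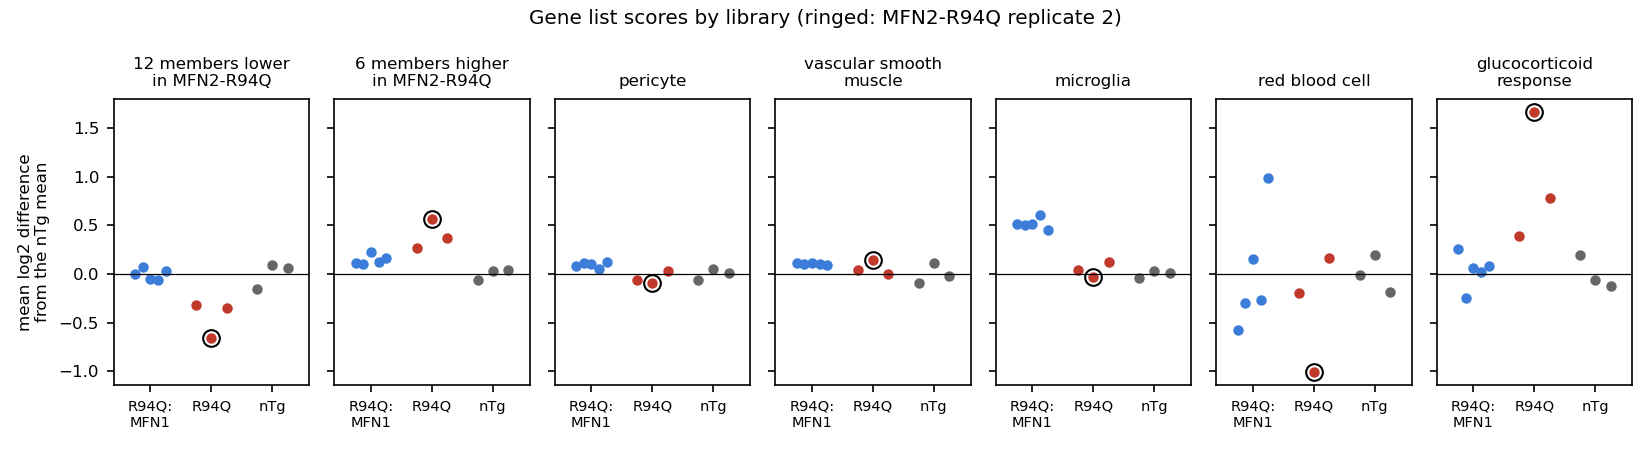
Each point is a library and shows the mean log2 difference from the nTg mean over the genes of a list, with MFN2-R94Q:MFN1, MFN2-R94Q and nTg from left to right and MFN2-R94Q replicate 2 ringed. The ringed library is farthest out for the 12 lowered members at -0.66, the 6 raised members at 0.57 and the glucocorticoid response genes at 1.66. For red cell genes it is the lowest at -1.01, and MFN2-R94Q:MFN1 replicate 5 is the highest at 0.98. The pericyte scores stay between -0.09 and 0.12, with the ringed library the lowest.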

How the data were processed

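RNA was measured in 11 lumbar spinal cords, 1 library each, with replicate numbers in record order. The authors deposited RPKM values made with TopHat (no version) and Partek 7.17.0918 on mm10, per the submitters' processing notes, from a stranded mRNA kit, per the labels' protocols. The sources used here give neither the annotation nor the strand setting of the counting. RPKM is already divided by depth, but depth still limits how well low genes are measured. Depth was recovered from the lowest values of 283 short RNA genes. Of the 55 to 91 values per library at no more than 5 reads, 96.4% to 100.0% were whole multiples of 1 read (tolerance 0.02). The depth was chosen for a high share of such multiples, so this share is no separate check of it. Exact counts were not recovered for longer genes, so no count test was run. Reads behind a member's value were approximated from its RPKM, this depth and its longest annotated transcript.

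Genes reaching 0.5 RPKM in 3 or more libraries were fitted in 1 model of all 11 libraries on log2(RPKM + 0.5) with limma 3.58.1 in R 4.3.3 (trend, two-sided, Benjamini-Hochberg, threshold 0.05). Fold changes on this scale understate the change of low genes. The steps were tested on simulated data. No libraries of a group were duplicates. Labels do not say how animals were bred or batched, so p-values measure the spread between these cords. The members and 18 further lists were chosen with earlier results of these data known. A member past the threshold was given in every library, and from each list up to 4 such genes with the smallest p. Alternatives covered the pseudocount, filter, scaling, weights, trend, design and each library left out. Positions and exon overlaps came from GENCODE M21 on GRCm38.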

Additional observations from a re-analysis of the deposited data

How the results depend on the processing

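No paired analysis was possible because the labels carry no replicate numbers and nothing in them pairs cords. The p-values rest on 3 cords in 2 of the groups, and low genes such as Gkn3 on few reads. No member's call changed its sign in any of the 11 omissions of a library or the 9 other settings. Pseudocounts of 0.1 and 1, a filter of 1 RPKM, quantile normalization and median-ratio scaling left every count of members and of all genes within 1.5 times the reported one. Without a filter on low values, MFN2-R94Q against nTg gave 3 members higher and 7 lower, MFN2-R94Q:MFN1 against MFN2-R94Q gave 1198 genes called with 6 members higher and 0 lower (limma; 16 higher and 4 lower at an unadjusted p under 0.05 with the filter), and MFN2-R94Q:MFN1 against nTg gave 0 members higher. When the fit held the compared groups alone, MFN2-R94Q against nTg gave 844 genes called with 2 members higher and 5 lower, MFN2-R94Q:MFN1 against MFN2-R94Q gave 1 member lower, and MFN2-R94Q:MFN1 against nTg gave 565 genes called. With weights per library, whose estimation stopped before convergence, MFN2-R94Q:MFN1 against MFN2-R94Q gave 3378 genes called, 6 members lower and a median of 0.091, and MFN2-R94Q:MFN1 against nTg gave 590 genes called and 2 members higher. Without the trend, 1 member was lower in MFN2-R94Q:MFN1 against MFN2-R94Q. Where no count of all genes is given beside a member count for these settings, that member count has no background share to be set against. The causes were not tested, except that smaller fits hold fewer samples.

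Leaving out each library in turn, MFN2-R94Q against nTg gave 1211 to 2857 genes called, 3 to 7 members higher, 5 to 13 lower and a median of -0.19 to -0.09. MFN2-R94Q:MFN1 against MFN2-R94Q gave 880 to 2217 genes called, 4 to 13 members higher, 1 to 3 lower and a median of 0.10 to 0.20. MFN2-R94Q:MFN1 against nTg gave 189 to 590 genes called, 0 to 1 member higher and 0 lower, with a median of -0.04 to 0.02. The fewest genes were called without nTg replicate 2, MFN2-R94Q replicate 2 and nTg replicate 1 in the 3 comparisons. These counts of all genes hold both directions together, and each range spans different omissions. A share by direction was given only without MFN2-R94Q replicate 2, so the other member counts have none to be set against.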
